A study of Mus musculus with 6 samples.

Results

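Ribosome biogenesis is the assembly of ribosomal subunits, most of which takes place in the nucleolus. RNA polymerase I transcribes a long ribosomal RNA precursor there. Small nucleolar ribonucleoproteins (snoRNPs) modify it, box C/D particles by 2′-O-methylation and box H/ACA particles by turning uridine into pseudouridine. Other factors cut and fold the precursor into the small and the large subunit. Growing lymphoid cells express these genes strongly, and many of them are known targets of the transcription factor Myc, which Notch induces in T cell leukemia. The genes described here are 50 named ribosome biogenesis and nucleolar genes. They were listed by name, but with earlier results of these data known. By role, 7 belong to RNA polymerase I and its initiation factors, 4 to box C/D and 4 to box H/ACA particles, 14 to small subunit processing and 16 to large subunit processing, and 5 are other nucleolar proteins. The arrays gave 48 of the 50 a probe set of their own, and all 48 passed the filter on dim genes, out of 13956 genes tested. Noc2l had no probe set named here. Ppan, a large subunit factor, lay only on a probe set annotated to 2 symbols, so neither was tested.

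The study asked how deleting Zfx, a zinc finger transcription factor, alters gene expression in Notch-driven mouse T cell acute lymphoblastic leukemia (T-ALL). Leukemia lines 14843, 14844 and 14846 are independent primary leukemias, made by retroviral transduction of Notch-IC, the active intracellular part of Notch, into progenitors with a tamoxifen-inducible Cre-ER transgene and a Zfx fl/y allele. All 6 samples share these alleles, and each line is a single leukemia passed to sublethally irradiated secondary recipients. Recipients received Vehicle (labelled ZFX flox) or 5 mg of Tamoxifen a day by gavage for 3 days (labelled ZFX null) from day 10 after transplant. The GFP+ cells were recovered by flow sorting 48 h after dosing ended, giving 1 Vehicle and 1 Tamoxifen array per line, or 3 arrays a group. Every array comes from cells with both Cre-ER and the floxed allele. Tamoxifen itself, Cre activity and loss of Zfx cannot be told apart. The sources used here state neither the promoter driving Cre-ER, nor the age of the mice, nor any pooling.

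The arrays carried a T cell signal. The 7 measured T lineage markers lay between 11.07 and 13.49 log2 intensity on every array, the level scale used throughout. Of 24 listed B cell, myeloid, neutrophil and erythroid markers, 22 were measured, 7 were too dim to test and 0 of the other 15 were called by limma, with 2 at an unadjusted p under 0.05. These were the myeloid markers Lyz2 and Itgam, at 0.24 and 0.29 log2 units, Tamoxifen minus Vehicle. Of the T lineage markers limma called 0 of 7, with Ptcra at -0.27 and an unadjusted p under 0.05. Each of these 3 markers had the same sign in all 3 lines. Their summed linear intensity in Vehicle against Tamoxifen arrays was 562 to 1037 against 637 to 712 for B cells, 1411 to 1642 against 1549 to 1819 for myeloid cells, 1139 to 2080 against 1189 to 2784 for neutrophils and 716 to 733 against 728 to 780 for erythroid cells. Within each line the myeloid and the erythroid sums were higher on the Tamoxifen array, the myeloid sum at 1819 against 1642, 1549 against 1420 and 1555 against 1411 in lines 14843, 14844 and 14846, and the erythroid sum at 780 against 716, 728 against 719 and 737 against 733. The neutrophil sum was highest in line 14844. The part of these markers in the members' differences was not tested. T lineage sums were 40258 to 44466 and 37998 to 42962. Zfx itself gave 0.07 ± 0.06 log2 units (SE), Tamoxifen minus Vehicle, at a limma adjusted p of 0.48. Where its probes lie relative to the deleted part is not stated, and its level therefore checks no label. In sorted cells, fewer cells of a kind and less RNA per cell cannot be told apart.

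The sequence searched first was the E-box CACGTG, the hexamer bound by Myc with its partner Max. It reads the same on both strands. RefSeq promoter windows (GRCm38.p6), each from 250 bases before a gene's start to 50 after it, were matched for 45 members and were missing for Rrp12, Fbl, Rrs1, Bop1 and Npm1. The hexamer stood in 11 of the 45, or 24.4%, against 8.09% of the 27025 genes with a window. By window these were 20.4% of the members' 54 and 7.15% of all 32851. Members with several windows had more chances to hold it. Each site is given as 30 bases on the gene's strand, with the hexamer in capitals. The 11 genes were picked for holding it, so that they share it follows from the search.

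Utp4, chr8:106893643-106893672, + strand: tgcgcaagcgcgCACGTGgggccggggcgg
Wdr43, chr17:71616220-71616249, + strand: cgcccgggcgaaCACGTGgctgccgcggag
Utp18, chr11:93885769-93885798, - strand: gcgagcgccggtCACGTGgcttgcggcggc
Utp20, chr10:88826765-88826794, - strand: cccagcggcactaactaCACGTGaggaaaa
Ltv1, chr10:13193092-13193121, - strand: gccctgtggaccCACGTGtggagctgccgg
Tsr1, chr11:74898092-74898121, + strand: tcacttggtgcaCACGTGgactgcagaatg
Imp4, chr1:34439696-34439725, + strand: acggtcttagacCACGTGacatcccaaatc
Pes1, chr11:3963965-3963994, + strand: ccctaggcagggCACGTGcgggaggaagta
Nle1, chr11:82908355-82908384, - strand: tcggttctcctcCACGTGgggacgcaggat
Nop2, chr6:125131811-125131840, + strand: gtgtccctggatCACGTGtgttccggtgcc
Mybbp1a, chr11:72441347-72441376, + strand: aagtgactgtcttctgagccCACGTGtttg

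Small subunit factors make up 7 of the 11, large subunit factors 3, and Mybbp1a is the remaining one. None of the RNA polymerase I, box C/D or box H/ACA members searched, which leaves out Fbl, had the hexamer in its window, and this says only that these letters are absent there. In 8 genes the hexamer lay after the start, with its first base between 3 and 41 bases from it, the first transcribed base counting as 1. In Utp18, Nop2 and Imp4 its first base lay before the start, at -20, -60 and -121. The other hexamer searched, AGGCCT, the core of the sequence known to be bound by Zfx, stood in 3 members (Imp4, Taf1d and Ubtf), or 6.67%, against 11.6% of all genes with a window. Neither match is evidence of binding in these cells.

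**Figure D1:**
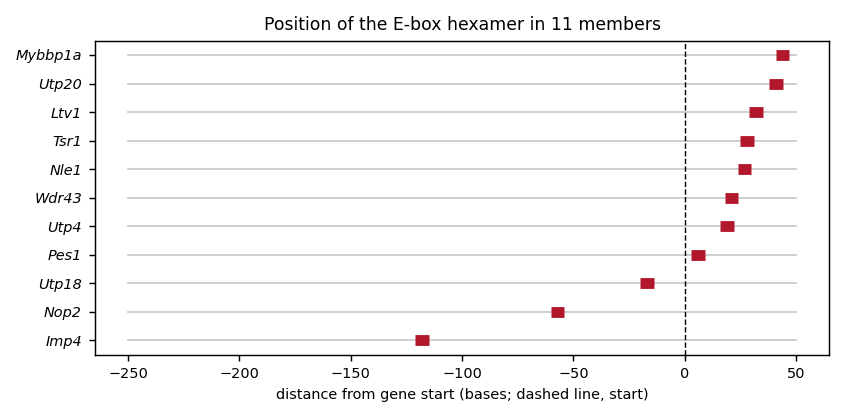
Position of the CACGTG hexamer (red bar) in the promoter window of the 11 members that hold it. The x axis is distance from the gene start in bases, and the grey line is the window searched. The hexamer lies after the start in 8 genes and before it in Utp18, Nop2 and Imp4.

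Of the 48 tested members, 1 passed the test between treatments. Utp4, a component of the small subunit processome also needed for transcription of ribosomal DNA, rose 1.27-fold in arrays labelled Tamoxifen. No member fell. Over all tested genes 6.23% were called, 1.3% higher and 4.93% lower. The members' 1 of 48, or 2.08%, is below the share called either way and above the share called higher. A single call is too few to tell from either share. At an unadjusted p under 0.05, 13 members were higher and 0 lower, 27.1% of the 48 against 10.5% of all genes higher and 13.3% lower. This split rests on the probe set of highest mean. In a fit over all probe sets, the other set of Polr1d, not among the 13, gave -0.23 ± 0.04 log2 units (SE). That of Wdr12, which is among them, gave 0.11 ± 0.05. The 95% intervals of all 48 members lay within a 1.5-fold change in either direction, which bounds the differences without showing that any member was unaltered.

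The members' differences were mostly above 0. The median over the 48 was 0.08 log2 units, a 1.06-fold difference, against 0.03 over all tested genes. By line the members' medians were 0.12, 0.04 and 0.08 in lines 14843, 14844 and 14846, against 0.02, 0.02 and 0.02 for all genes. Differences were above 0 for 35 members, 72.9% against 58.6% of all tested genes. Higher in all 3 lines were 26 members, 54.2% against 28.6% of all genes, and lower in all 3 lines were 4 members (Ubtf, Taf1d, Nop10 and Imp4), 8.33% against 20.2%. The groups did not overlap for 10 members higher in Tamoxifen arrays, 20.8% against 12.2% of all genes, and for 1 lower, Taf1d, against 11.5%. These counts describe the list, whose members may vary together, and no set test was run. They also rest on the probe set of highest mean. The other set of Polr1d was lower without overlap, and that of Wdr12 overlapped. The other set of Fbl was not higher in every line, and most sets of Taf1d were above 0.

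**Figure D2:**
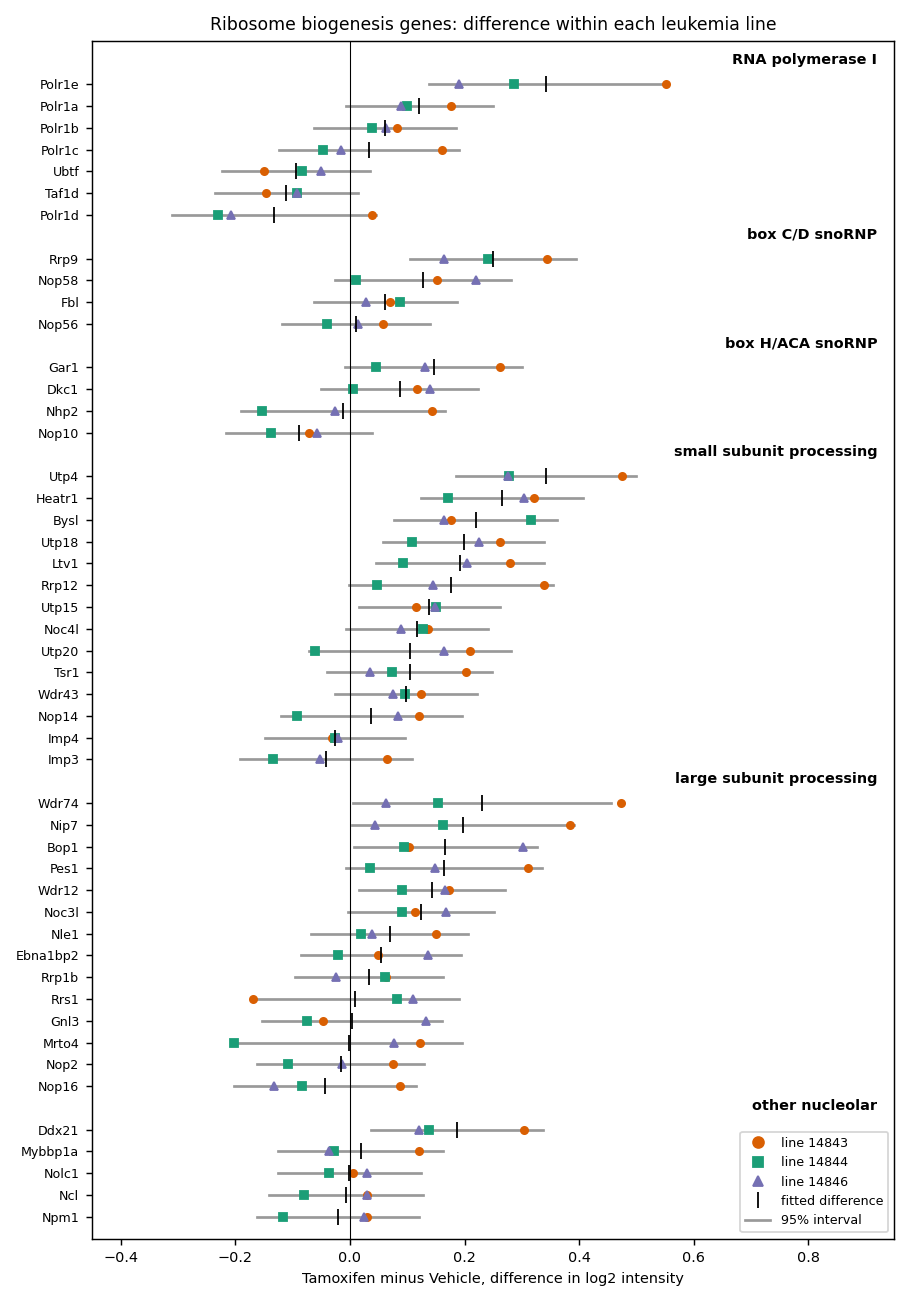
Tamoxifen minus Vehicle difference in log2 intensity (x axis) for the 48 tested members, grouped by role and sorted by the fitted difference. Coloured symbols are the 3 leukemia lines, black ticks the fitted difference and grey bars its 95% interval from limma. Line 14843 lies farthest right for 33 of the 48 members.

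Among the 7 RNA polymerase I genes limma called 0, with 1 at an unadjusted p under 0.05, and the median difference was 0.03. Over all tested genes 6.23% were called, and 10.5% were higher at an unadjusted p under 0.05. Beside these shares, 0 calls in role lists of 4 to 14 tested genes sets none of them apart. Polr1e, a subunit specific to RNA polymerase I, stood at 10.04, 10.38 and 10.58 log2 intensity in Vehicle arrays of lines 14843, 14844 and 14846, and at 10.59, 10.67 and 10.77 in their Tamoxifen arrays. Every Tamoxifen array was above every Vehicle array, though line 14843 under Tamoxifen was close to line 14846 under Vehicle. The difference was 0.34 ± 0.08 (SE), as large as that of Utp4 but with a wider error, and its limma adjusted p was 0.077. Polr1a, the largest catalytic subunit, gave 0.12 ± 0.05 (adjusted p = 0.23), and Polr1b, the second largest, 0.06 ± 0.05 (0.49). Both were higher in all 3 lines. Polr1c, a subunit shared with RNA polymerase III, gave 0.03 ± 0.06.

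The remaining RNA polymerase I genes had values below 0. Ubtf, the factor that holds active ribosomal DNA open, gave -0.09 ± 0.05 and was lower in all 3 lines. Polr1d, also shared with RNA polymerase III, had 2 probe sets. The one with the higher mean gave -0.13 ± 0.07, with line differences of 0.04, -0.23 and -0.21. The IDs next to it belong to genes of other chromosomes than that of Polr1d. The other probe set, among neighbours of its own chromosome, gave -0.23, lower in all 3 lines, with an adjusted p of 0.062 when used instead. Taf1d, a subunit of the initiation factor SL1 whose transcript also hosts snoRNAs, had 9 probe sets, of which 4 held identical values. The set used, of highest mean, gave -0.11 ± 0.05. Of the others, 1 gave -0.14 and 7 gave values above 0, namely 0.05 for the 4 identical sets and 0.06, 0.07 and 0.13 for the rest, so the sign for Taf1d depends on the probe set.

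In limma, box C/D and box H/ACA genes gave 0 calls, with 1 box C/D and 0 box H/ACA genes at an unadjusted p under 0.05. The median difference was 0.09 over the 4 box C/D genes, all above 0, and 0.04 over the 4 box H/ACA genes, 2 above and 2 below 0. Rrp9, the protein specific to the U3 snoRNP that guides early cleavage, was at 9.81, 10.11 and 10.25 in Vehicle arrays and at 10.16, 10.35 and 10.41 in Tamoxifen arrays of lines 14843, 14844 and 14846. Each line was higher under Tamoxifen, but the groups overlapped, since line 14843 under Tamoxifen was below line 14846 under Vehicle. Its difference was 0.25 ± 0.06 (SE), at an adjusted p of 0.072. Nop58, a core scaffold, gave 0.13 ± 0.06 (0.28), while its partner Nop56 gave 0.01 ± 0.05 and the methyltransferase Fbl 0.06 ± 0.05. The Fbl set used lay among IDs of genes of other chromosomes. Its other set, among neighbours of its own chromosome, also gave 0.06, but with line differences of 0.12, -0.07 and 0.13 it was not higher in every line.

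In the H/ACA particle, Gar1 stood at 10.79, 11.15 and 11.08 in Vehicle arrays and 11.05, 11.20 and 11.21 in Tamoxifen arrays, in the same order of lines. It was higher in each line, with overlapping groups and a difference of 0.15 ± 0.06 (adjusted p = 0.23). The pseudouridine synthase Dkc1 gave 0.09 ± 0.05. Nop10, which binds Dkc1 directly, gave -0.09 ± 0.05 and was lower in all 3 lines, and Nhp2 gave -0.01 ± 0.07. The 4 proteins of this particle therefore did not share a sign.

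Small subunit factors had the highest list median, 0.13 over 14 genes, and held the only call. That 1 call does not set the list apart from those with 0. Utp4 (probe set 10575102) was at 11.29, 11.55 and 11.54 in Vehicle arrays of lines 14843, 14844 and 14846, and at 11.76, 11.83 and 11.81 in their Tamoxifen arrays. The groups did not overlap, and the Tamoxifen arrays lay closer together, at 11.80 ± 0.04 against 11.46 ± 0.15 (SD, n = 3 each). The difference was 0.34 ± 0.06 (SE), with a 95% interval of 0.19 to 0.50 and a limma adjusted p of 0.040. The call was lost whichever line was left out, at adjusted p-values of 0.11, 0.16 and 0.065 without lines 14843, 14844 and 14846, and without the block for line, at 0.11. The difference itself lay between 0.28 and 0.38 in those fits.

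Heatr1, a processome protein of the same early subcomplex as Utp4, came next. Its Vehicle arrays read 10.79, 11.02 and 11.04 and its Tamoxifen arrays 11.11, 11.19 and 11.35, so the groups did not overlap. The difference was 0.26 ± 0.06, at an adjusted p of 0.061. Of the other members of that subcomplex, Utp15 gave 0.14 ± 0.05 and Wdr43 0.10 ± 0.05, both higher in all 3 lines. Utp18, of the processome, gave 0.20 ± 0.06, without overlap of the groups. Bysl and Ltv1, factors of late small subunit maturation, gave 0.22 ± 0.06 and 0.19 ± 0.06, Rrp12, needed for subunit export, 0.18 ± 0.07 and Noc4l 0.12 ± 0.05. Utp20 and Tsr1 gave 0.10 ± 0.07 and 0.10 ± 0.06, and Nop14 gave 0.04 ± 0.06. The members below 0 were Imp3, at -0.04 ± 0.06, and Imp4, at -0.03 ± 0.05, which bind the U3 snoRNA together.

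**Figure D3:**
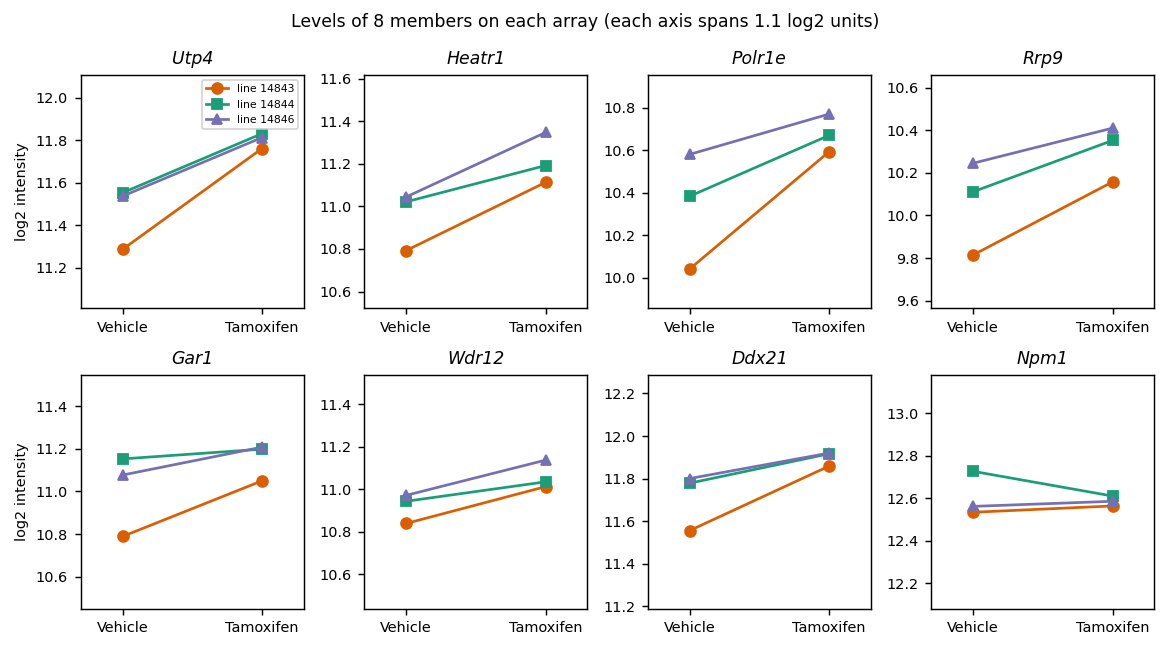
Log2 intensity (y axis, 1.1 units high in each panel) of 8 members on Vehicle and Tamoxifen arrays, with a line joining the 2 arrays of each leukemia. For Utp4, Heatr1, Polr1e, Wdr12 and Ddx21 every Tamoxifen array is above every Vehicle array, while Npm1 is nearly level except in line 14844. For Wdr12 this holds on the probe set shown and not on its other set.

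Large subunit factors gave 0 calls by limma among 14 tested genes, against 6.23% of all genes. At an unadjusted p under 0.05, 4 were higher, against 10.5% of all genes. Their median was 0.06, and 7 were higher in all 3 lines, 50% against 28.6% of all genes. Bop1, Pes1 and Wdr12 form the PeBoW complex, which is needed for maturation of the large subunit RNAs. They gave 0.17 ± 0.06, 0.16 ± 0.07 and 0.14 ± 0.05, each higher in every line. Wdr12 read 10.84, 10.94 and 10.97 in Vehicle arrays and 11.01, 11.04 and 11.14 in Tamoxifen arrays, in the order of lines 14843, 14844 and 14846, without overlap (adjusted p = 0.18). The probe set used lay among genes of another chromosome, and the other set gave 0.11. On that other set the groups overlapped, with line 14843 at 9.62 under Tamoxifen and line 14846 at 9.67 under Vehicle. Its line differences were 0.03, 0.13 and 0.18. Bop1 read 10.81, 10.95 and 10.84 and then 10.91, 11.04 and 11.15, with overlap (adjusted p = 0.20).

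The widest spread between lines among large subunit factors was that of Wdr74, at 0.23 ± 0.09 with line differences of 0.47, 0.15 and 0.06. Nip7 gave 0.20 ± 0.08 with 0.38, 0.16 and 0.04, so in both the difference was mostly that of line 14843. Noc3l gave 0.12 ± 0.05 and Nle1 0.07 ± 0.05, also higher in all 3 lines. Signs differed between lines for the other 7. Ebna1bp2, Rrp1b, Rrs1 and Gnl3, the nucleostemin gene, gave 0.05 ± 0.06, 0.03 ± 0.05, 0.01 ± 0.07 and 0.00 ± 0.06. Nop2, Nop16 and Mrto4 gave -0.02 ± 0.06, -0.04 ± 0.06 and 0.00 ± 0.08. The Mrto4 set used lay among genes of other chromosomes, and the set among its own neighbours gave the same difference to 2 decimals.

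The abundant multifunctional nucleolar proteins were nearly level, with a list median of 0.00, 0 calls by limma and 1 gene, Ddx21, at an unadjusted p under 0.05. Npm1, the histone and ribosomal protein chaperone nucleophosmin, read 12.53, 12.73 and 12.56 in Vehicle arrays and 12.56, 12.61 and 12.58 in Tamoxifen arrays, a difference of -0.02 ± 0.06 (adjusted p = 0.85). Ncl, nucleolin, gave -0.01 ± 0.05, Nolc1, a snoRNP chaperone, 0.00 ± 0.05 and Mybbp1a, a nucleolar transcription corepressor, 0.02 ± 0.06. Ddx21, an RNA helicase that links RNA polymerase I and II transcription, differed from the other 4. It read 11.56, 11.78 and 11.80 in Vehicle arrays and 11.86, 11.92 and 11.92 in Tamoxifen arrays, without overlap, at 0.19 ± 0.06 (adjusted p = 0.14).

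**Figure D4:**
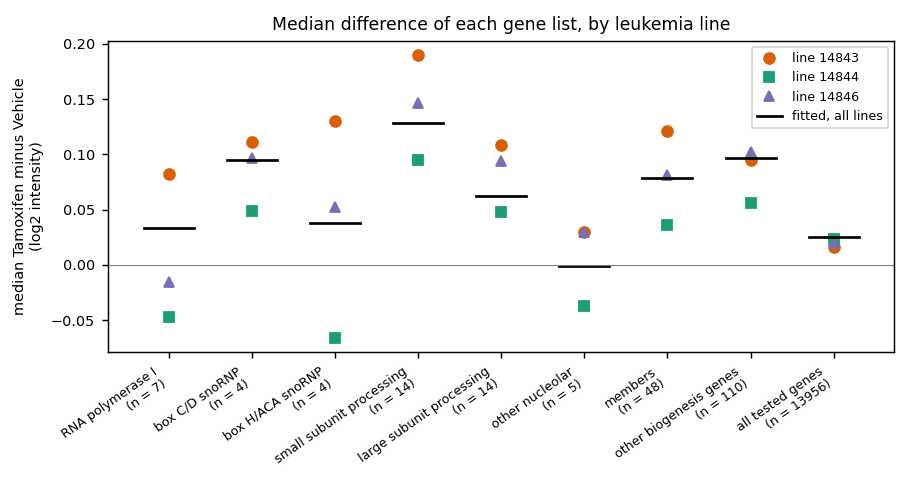
Median Tamoxifen minus Vehicle difference (y axis, log2 intensity) of each role list, of all 48 members, of 110 other biogenesis genes and of all tested genes. Symbols are the lines and black bars the medians of the fitted differences. Small subunit factors have the highest bar, 0.13, and 3 lists have lines on both sides of 0.

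The order of the role lists depended in part on line 14843. Without it the list medians were 0.10 for small subunit factors, 0.09 for box C/D, 0.07 for large subunit factors, -0.01 for box H/ACA, -0.03 for other nucleolar proteins and -0.03 for RNA polymerase I. Small subunit factors kept the highest median in this fit, while the sign turned for the box H/ACA and RNA polymerase I lists. Over all members the median was 0.06 without line 14843. Without line 14844 the medians were 0.07 for RNA polymerase I, 0.09 for box H/ACA, 0.10 for large subunit factors and 0.03 for other nucleolar proteins, and without line 14846 that of RNA polymerase I was 0.06. The differences between role lists were not tested.

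Line 14843 had the lowest average level of nearly every member. Averaged over the treatments, it was the lowest of the 3 lines for 47 of 48 members, or 97.9%, against 36.2% of all tested genes, the exception being Taf1d, lowest in line 14846. The median gap of line 14843 to the mean of the other lines was -0.16 log2 units over the members and 0.00 over all tested genes. The count was 48 with arrays centred on their medians and 41 after quantile normalization, with all-gene shares of 40.7% and 32.3%. Fewer members had line 14843 lowest among both the Vehicle and the Tamoxifen arrays. These were 40 as deposited, 41 after centring and 28 after quantile normalization, against 2894, 3266 and 2273 of the 13956 tested genes. Per gene, limma's F test between lines called 0 of 48 members against 3.11% of all genes, while 19 members, or 39.6%, had an unadjusted p under 0.05, against 19.3% of all genes. This pattern was singled out after its values were seen.

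The 3 members with the smallest p between lines were Polr1b, Mybbp1a and Polr1a. Polr1b averaged 10.97, 11.31 and 11.29 in lines 14843, 14844 and 14846 (F test adjusted p = 0.069), Mybbp1a 11.22, 11.42 and 11.60 (0.11) and Polr1a 10.52, 10.72 and 10.85 (0.11). Line 14843 was lowest in all 3, and lines 14844 and 14846 were nearly equal for Polr1b. Rrs1, an early large subunit factor, had the widest range, at 9.11, 9.52 and 9.45. Levels of different probe sets are not comparable with each other.

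The gap of line 14843 was smaller on Tamoxifen than on Vehicle arrays for 38 of the 48 members. Its median over members was -0.24 on Vehicle and -0.12 on Tamoxifen arrays, against 0.01 and 0.00 over all tested genes. For Polr1e the gap was -0.44 on Vehicle and -0.13 on Tamoxifen arrays, for Rrp12 -0.37 and -0.13, and for Rrs1, which went the other way, -0.24 and -0.50. By arithmetic, a smaller gap means a larger treatment difference in that line. Line 14843 gave the largest of the 3 differences for 33 members, 68.8% against 32.1% of all genes. With 1 array per line and treatment, a difference in response between lines and the variation of single arrays cannot be told apart.

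**Figure D5:**
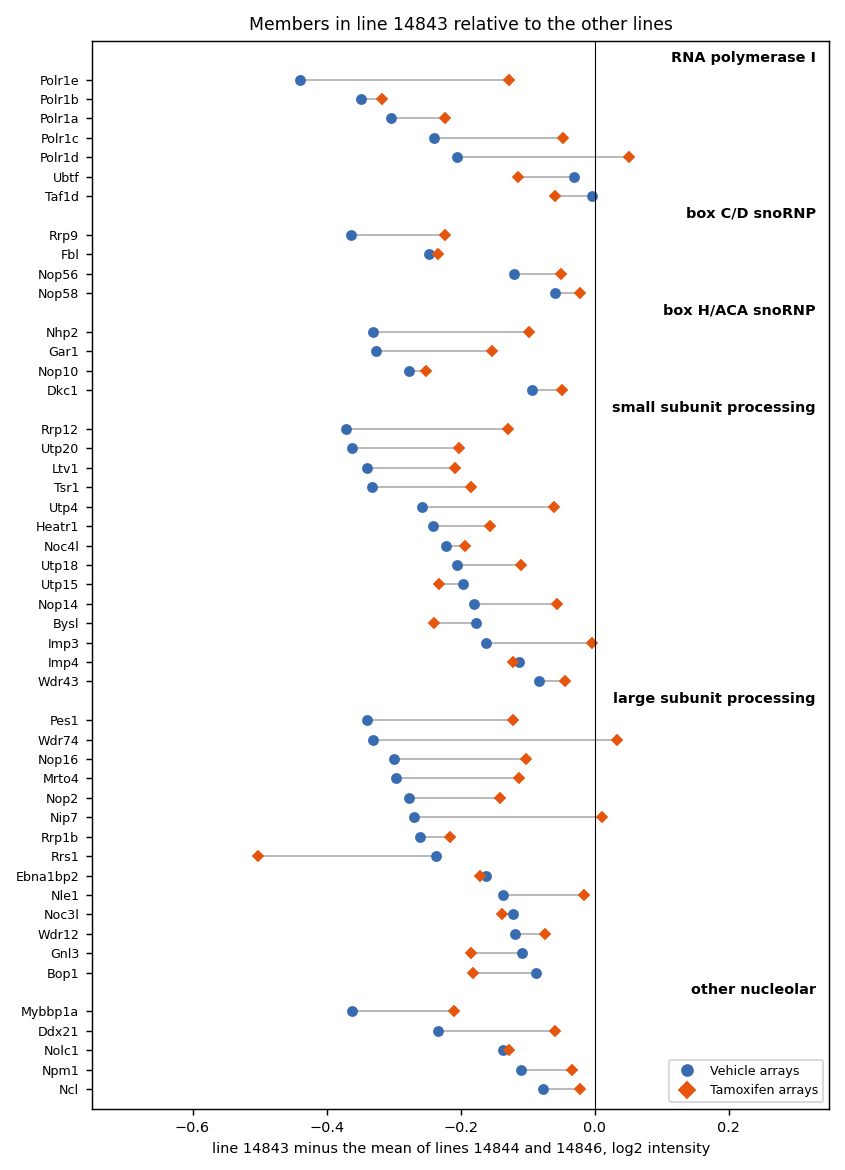
Level of line 14843 minus the mean of lines 14844 and 14846, in log2 intensity (x axis), for the 48 members by role. Circles are Vehicle and diamonds Tamoxifen arrays. The circles are all below 0, the median being -0.24, and the diamonds lie nearer to 0 for 38 members.

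Members with the E-box were set beside those without it. Of the 11 with the hexamer, 9 were above 0 and their median difference was 0.10. Of the 32 tested members with a window but no hexamer, 22 were above 0, with a median of 0.06. Utp4, Utp18 and Ltv1, at 0.34, 0.20 and 0.19, hold it, while Polr1e, Heatr1 and Rrp9, at 0.34, 0.26 and 0.25, do not. Most of the 11 are small subunit factors, the list with the highest median, so this split overlaps with role. For AGGCCT the split ran the other way, with 0 of 3 members above 0 and a median of -0.09, against 31 of 40 and 0.10 without it. Neither split was tested, and 3 members are few. Among these 3, the sign of Taf1d depends on the probe set, and the mean of its sets gave 0.025. Myc gave -0.20 ± 0.09 (SE), at a limma adjusted p of 0.24. It read 12.86, 12.96 and 12.65 in Vehicle arrays and 12.49, 12.67 and 12.69 in Tamoxifen arrays of lines 14843, 14844 and 14846, so it was lower in 2 lines and nearly level in line 14846.

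A further 116 genes of the same pathway were listed, of which 110 were tested. Their list median was 0.10, and 81 were above 0, 73.6% against 58.6% of all tested genes. Higher in all 3 lines were 60, or 54.5% against 28.6%, and lower in all 3 were 14, or 12.7% against 20.2%. Called were 6, or 5.45%, against 6.23% of all genes. Of the 6, 4 were higher and 2 lower, beside all-gene shares of 1.3% called higher and 4.93% called lower. The largest was Aatf, a nucleolar protein of early small subunit processing, which read 10.52, 10.83 and 10.75 in Vehicle arrays and 9.94, 10.16 and 10.12 in Tamoxifen arrays of lines 14843, 14844 and 14846. It fell 1.55-fold without overlap, with a difference of -0.63 ± 0.05 (SE), at an adjusted p of 0.0063, and at 0.069 without line 14844. Utp11, another processome protein, fell, at -0.29 ± 0.05. Riok2, a kinase of late small subunit maturation, rose by 0.36 ± 0.07, Shq1, an assembly factor of H/ACA particles, by 0.31 ± 0.06, Dcaf13, of the processome, by 0.31 ± 0.05, and Nmd3, the export adaptor of the large subunit, by 0.28 ± 0.05.

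Of these 6, the 5 other than Aatf lost their calls whichever line was left out and without the block for line. The count of other biogenesis genes called was 1, 0 and 1 without lines 14843, 14844 and 14846, and 1 without the block. Riok2 also lost its call after centring (adjusted p = 0.054), quantile normalization (0.0503) and without the filter on dim genes (0.055), and Utp11 after quantile normalization (0.063) and with a trended, robust eBayes (0.055). Averaged over the treatments, line 14843 was lowest for 96 of the 110, or 87.3%, against 36.2% of all tested genes, with a median gap of -0.12. With arrays centred on their medians it was lowest for 100, or 90.9%, against 40.7%. After quantile normalization it was lowest for 76, or 69.1%, against 32.3%, with a median gap of -0.09. Among both the Vehicle and the Tamoxifen arrays it was lowest for 66 as deposited, 67 after centring and 47 after quantile normalization. Polr1f, Polr1g, Polr1h, Utp14b, Rrp7a and Cebpz were not tested.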

How the data were processed

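Expression was measured in sorted leukemia cells on 6 one-colour Affymetrix arrays, from 200 ng of total RNA labelled with biotin, per the labels' protocols. The deposited values are probe set intensities that the authors made by RMA in Affymetrix Expression Console 1.1, as the submitters' processing notes name them. RMA equalizes the distribution of probe signals, which removes differences in overall signal between arrays. That the scale is linear follows from array medians of 202 to 208. Their log2 was used here. Precision is limited by the number of arrays.

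Of 35556 probe sets, 21789 had 1 annotated symbol, 1621 several and 12146 none here. Entrez identifiers of 21698 were found in RefSeq (GRCm38.p6), and 0 symbols changed. Each of 19938 genes took its probe set of highest mean. Genes at or above the 30th percentile, a log2 level of 6.70, were tested. Where a member had several single-symbol probe sets, the differences of the others were given beside it. Chromosomes from RefSeq were used only to ask whether neighbouring probe set IDs belong to genes of the same chromosome.

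The treatment contrast was fitted in R 4.3.3 by limma 3.58.1 (lmFit, eBayes), with line as a block, because the series design sends cells of each line to both treatments. As a check of that pairing, the 2 arrays of a line deviated together, with correlations of 0.64, 0.68 and 0.68. Two-sided p-values were Benjamini-Hochberg adjusted over all 13956 genes, and called at 0.05. Lines were compared with the moderated F test of the same fit. Each gene had 2 residual and 3.47 prior degrees of freedom. The code was run on data simulated from the fit's own model, which therefore held by construction. Its pass mark covered only changes larger than that of any member. For treatment, p-values rest on the spread of the within-line differences of these 3 leukemias. That spread is moderated toward the one over all tested genes. Members and lists were chosen with earlier results of these data known. Named were members called, the 2 of smallest p per role, the 3 of highest and of lowest mean, the 3 of smallest p between lines, called genes of the other biogenesis lists, Zfx and Myc. Polr1d was added after its values were seen, and the remaining members are named to account for the whole list. Alternatives covered the block, scaling, filter, probe set choice, moderation and each line left out. The choice of probe set by neighbouring IDs was added after seeing the data.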

Additional observations from a re-analysis of the deposited data

Results flagged for a closer look

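The treatment difference pointed opposite ways in the leukemia lines for 3 of 6 role lists and for 6 of the 21 members followed through the alternatives (Polr1d was added to these after its values were seen), and none of these differences between lines was tested, as each line had 1 array per treatment. The medians in lines 14843, 14844 and 14846 were 0.08, -0.05 and -0.02 for RNA polymerase I (a span of 0.13 log2 units), 0.13, -0.07 and 0.05 for box H/ACA genes (0.20) and 0.03, -0.04 and 0.03 for other nucleolar proteins (0.067). The spans between the lines' differences were 0.28 for Rrs1, 0.27 for Polr1d, 0.20 for Imp3, 0.16 for Mybbp1a, 0.15 for Npm1 and 0.11 for Ncl. Line 14844 had the lowest difference for Polr1d, Imp3, Ncl and Npm1, and line 14843 for Rrs1.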

How the results depend on the processing

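Members called numbered 1, 1 higher and 0 lower, under 8 of 12 alternatives, in each case Utp4. Without the block for line, the pairing by leukemia, 0 members were called, 0 of them higher, and the counts were 295 over all genes and 1 over the other biogenesis genes. Leaving out each line gave 0 members, 0 higher, 70 to 669 genes in all and 0 to 1 other biogenesis genes; each such fit had 2 arrays fewer. Utp4 had adjusted p-values of 0.027 to 0.16 over the 12. Members differing between lines stayed at 0 under each of the 11 fits with a line term. The members' median lay between 0.06 and 0.10. Centring gave medians of 0.02 for RNA polymerase I and box H/ACA genes, and quantile normalization 0.05 for RNA polymerase I and 0.10 for large subunit factors. Signs turned, none with a call, for Rrs1 after centring (-0.0054), for Taf1d with the mean of its probe sets (0.025) and for Npm1 with probe sets of several symbols (0.043). With each line left out in turn, differences spanned 0 for Npm1 (-0.046 to 0.027), Ncl (-0.025 to 0.029), Imp3 (-0.094 to 0.0058), Rrs1 (-0.043 to 0.096) and Mybbp1a (-0.032 to 0.047). The causes were not tested.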
